A study of Homo sapiens with 18 samples.

Results

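The 9 genes described here belong to the NRF2 response, to glutathione synthesis and to the defense against ferroptosis. They are NFE2L2, KEAP1, GCLC, GCLM, GPX4, NQO1, HMOX1, TXNRD1 and AIFM2, chosen by name and matched by symbol to their Ensembl identifiers, so that they make up 9 of the 58302 genes in the RNA-seq table. They were measured in PANC-1 cells, an established human line from a pancreatic ductal carcinoma, which had been infected with a lentiviral vector for short hairpin RNA (shRNA). Control cells (shCtrl) carried the shRNA vector that the labels describe as empty. The paper lists a non-targeting shRNA among its oligonucleotides, so whether the control cells expressed a hairpin is uncertain. NAT10-KD cells (shNAT10) stably carried an shRNA against NAT10, the enzyme that writes N4-acetylcytidine (ac4C) into RNA. RNA-seq covered 3 libraries per group. For acRIP-seq, in which RNA fragments are pulled down with an antibody against ac4C, 3 immunoprecipitated and 3 input libraries per group were made, and 1 list of peaks per group was deposited. Whether each line was a pool or 1 clone is not given in the sources used here. Nothing states that the 3 libraries of a group came from separate cultures, so the p-values below measure the spread between these libraries, which may be technical.

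NRF2, the protein of NFE2L2, is a transcription factor that turns on genes against oxidative and electrophilic stress. KEAP1 holds it in the cytosol and brings it to a CUL3 ubiquitin ligase for degradation, and stress relieves this brake. Among its targets are the enzymes that build glutathione, the main soluble thiol of the cell. Others reduce quinones or thioredoxin, or break down heme. Ferroptosis is a form of cell death driven by iron-dependent peroxidation of membrane lipids. GPX4 reduces such lipid peroxides with glutathione, and AIFM2, also named FSP1, stops them by a separate route through reduced coenzyme Q.

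The targeted gene NAT10 measured 31.6, 27.7 and 28.6 FPKM (fragments scaled to gene length and to the reads of the library) in shCtrl and 7.92, 8.43 and 7.90 in shNAT10 libraries, a log2 fold change of -1.84. The 6 libraries held between 15831720 and 23521762 reads, recovered from the steps of the FPKM values. Among 12982 genes tested, 2751 were lower in shNAT10 (21.2%) and 2699 were higher (20.8%) at an adjusted p-value under 0.05 (limma, Benjamini-Hochberg). With TPM as the scale these counts became 2075 lower and 3355 higher, since the median log2 fold change of all genes moved by 0.11, from -0.01 to 0.10. Of the libraries, shCtrl replicate 2 stood apart, with the highest sum of FPKM (390761, against 337414 to 361185 in the others) and the largest spread around its group. Of the 5 markers of ductal epithelium, the keratins KRT7, KRT8, KRT18 and KRT19 and the adhesion molecule EPCAM were all detected at 4 FPKM or more, the keratins lower and EPCAM higher in shNAT10. Markers of leukocytes, endothelium, hepatocytes, acinar and islet cells (PTPRC, PECAM1, ALB, PRSS1 and INS) lay at or near 0, at no more than 0.455 FPKM. Whether shCtrl replicate 2 or the change in epithelial markers has a part in the differences below was not tested, and in bulk RNA fewer cells with a transcript and less of it per cell cannot be told apart.

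All 9 genes passed the filter on expression, which asked for 3 or more libraries at 1 FPKM or above. In shNAT10 cells 5 of them were lower than in shCtrl cells at an adjusted p-value under 0.05, namely HMOX1, AIFM2, GCLC, NQO1 and NFE2L2, and 0 were higher. Of all tested genes 21.2% were lower and 20.8% higher by this rule. At an unadjusted p-value under 0.05 limma gave 6 lower and 0 higher, and limma's voom on the recovered reads also called 5 lower and 0 higher. The shNAT10 values lay below all shCtrl values for 6 of the 9 genes, which holds for 28.6% of all tested genes, and above all of them for 0, against 27.9%. HMOX1 alone passed a log2 fold change of -1, as 3.57% of the tested genes did. The median log2 fold change of the 9 genes was -0.24, beside -0.01 for all tested genes. An exact permutation test of a single gene cannot go below p = 0.1 with 3 libraries against 3, and that value was reached by each of the 6 genes whose groups did not overlap.

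**Figure D1:**
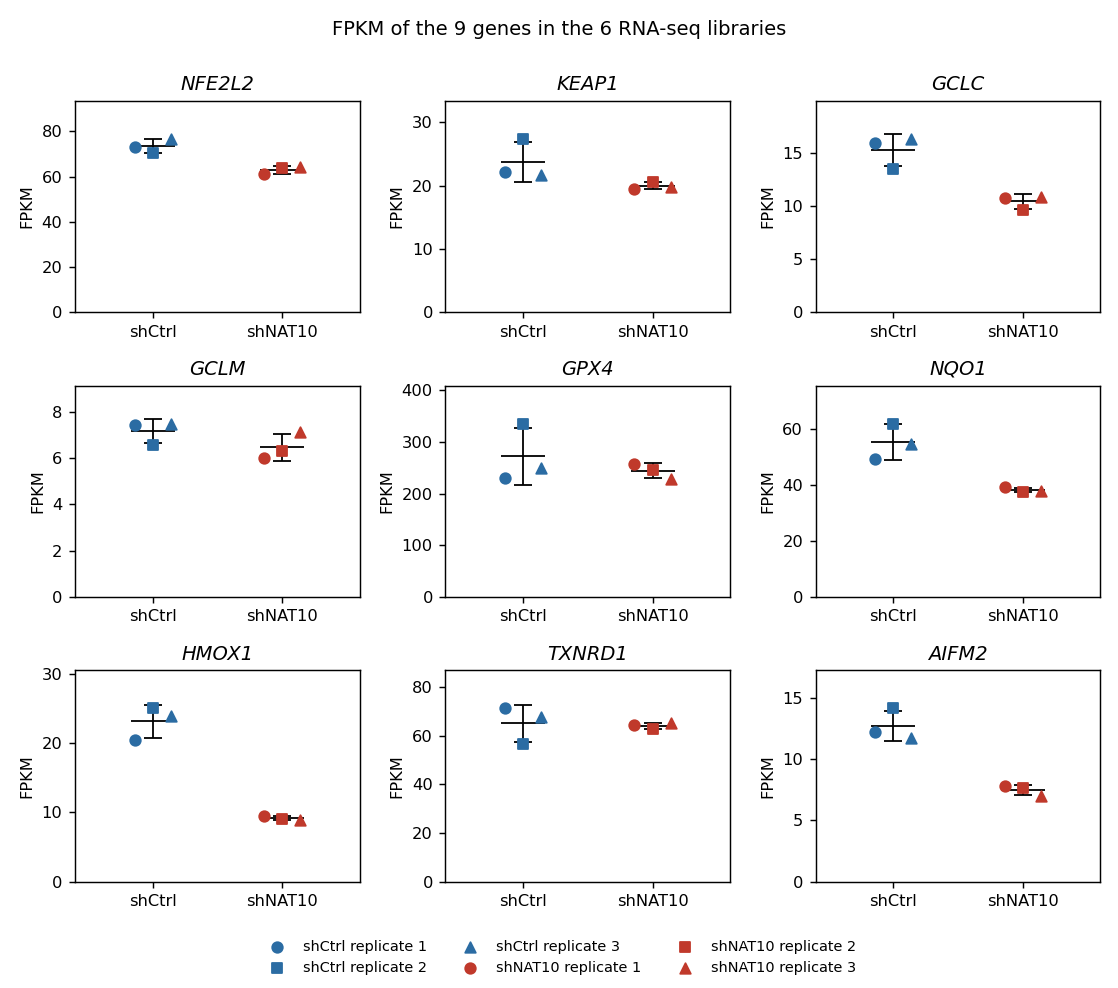
FPKM of each gene (vertical axis, from 0) in the 3 shCtrl libraries (blue) and the 3 shNAT10 libraries (red), with the mean and SD in black. The groups are apart for HMOX1, AIFM2, GCLC, NQO1, NFE2L2 and KEAP1 and overlap for GCLM, GPX4 and TXNRD1. For every gene, whether the groups overlap or not, shCtrl replicate 2 (square) is the highest or lowest control value.

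In control cells the genes spanned a wide range of levels per length. GPX4 was the most abundant, with a mean of 272 FPKM and a place at the 99.0th percentile of the tested genes, and GCLM was the least, with 7.15 FPKM at the 46.7th percentile. Between them, in falling order, stood NFE2L2 (73.4), TXNRD1 (65.1), NQO1 (55.4), KEAP1 (23.8), HMOX1 (23.2), GCLC (15.3) and AIFM2 (12.7 FPKM). The control values of NFE2L2 and TXNRD1, of TXNRD1 and NQO1, of KEAP1 and HMOX1, and of GCLC and AIFM2 overlapped, so these neighbors did not differ beyond their spread. In shNAT10 cells HMOX1 (9.16 FPKM) stood below KEAP1 (19.96 FPKM) and GCLC (10.5 FPKM), and TXNRD1 (64.1 FPKM) was level with NFE2L2 (63.0 FPKM).

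NFE2L2 measured 73.2, 70.4 and 76.7 FPKM in shCtrl cells and 61.1, 63.5 and 64.2 FPKM in shNAT10 cells. Every shNAT10 library lay below every control library, yet the step was small, with a ratio of means of 0.857 and a log2 fold change of -0.22 (SE 0.06, 95% interval -0.37 to -0.07, limma adjusted p = 0.0275). The call was lost with TPM (log2 fold change -0.11, or -0.21 relative to the shifted median, limma adjusted p = 0.277) and with quantile normalization (0.0533). It was also lost without shCtrl replicate 3 or without any 1 of the shNAT10 libraries, with limma adjusted p-values between 0.0819 and 0.112. With the replicate numbers as a block in the fit it was lost too (limma adjusted p = 0.055). In GENCODE v29 on GRCh38 the gene lies on chromosome 2, at 177227595 to 177392697 on the minus strand, and 17.6% of its exon bases are shared with the same-strand gene AC019080.1, so reads there are uncertain. The 3 tested genes whose log2 values followed NFE2L2 most closely over the 6 libraries were ANP32E (Pearson r = 0.9985), TAF5 (0.9976) and ZSCAN26 (0.9971), all 3 of which were lower in shNAT10. These correlations are descriptions, since the 6 points fall into the same 2 groups.

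KEAP1, the sensor that restrains NRF2, lies on chromosome 19 at 10486120 to 10503741, minus strand. It measured 22.2, 27.4 and 21.7 FPKM in shCtrl and 19.5, 20.6 and 19.8 FPKM in shNAT10 cells. The groups did not overlap, but the log2 fold change of -0.24 (95% interval -0.48 to -0.01) missed the threshold in limma, with an adjusted p of 0.0903. The highest control value, that of shCtrl replicate 2, came from the library that stood apart, and without it the log2 fold change was -0.14. The number of NFE2L2 transcripts per KEAP1 transcript, taken as the ratio of FPKM within each library, was 3.13 ± 0.50 (SD, n = 3) in shCtrl and 3.16 ± 0.080 in shNAT10 cells, and the groups overlapped (exact permutation p = 1.0).

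Glutathione synthesis starts with glutamate-cysteine ligase, which joins a catalytic subunit, GCLC, to a modifier subunit, GCLM. GCLC (chromosome 6, 53497341 to 53616970, minus strand) measured 16.0, 13.6 and 16.4 FPKM in shCtrl and 10.8, 9.67 and 10.9 FPKM in shNAT10 cells. It fell by 0.54 on the log2 scale (SE 0.10, 95% interval -0.77 to -0.31, limma adjusted p = 0.00469), to 0.683 of the control mean, and kept its call in all 15 alternatives. GCLM (chromosome 1, 93885205 to 93909456, minus strand) measured 7.42, 6.57 and 7.48 FPKM in shCtrl and 5.995, 6.28 and 7.10 FPKM in shNAT10 cells. These values overlapped, and the log2 fold change of -0.15 (95% interval -0.37 to 0.08) was not called (limma adjusted p = 0.261). Within each library the ratio of GCLC to GCLM was 2.15, 2.06 and 2.19 in shCtrl and 1.80, 1.54 and 1.53 in shNAT10, so the catalytic subunit was lower against its partner in all 3 shNAT10 libraries. The exact permutation p of this ratio was 0.1, the smallest possible, and 0.125 after adjustment over 5 ratios, all of which were chosen with the values known.

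HMOX1 encodes the inducible heme oxygenase, which breaks heme into biliverdin, carbon monoxide and iron. The gene lies on chromosome 22 at 35380361 to 35394214, plus strand, and showed the largest difference of the 9. Its FPKM was 20.5, 25.004 and 23.99 in shCtrl cells (23.2 ± 2.38, SD, n = 3) and 9.46, 9.06 and 8.94 in shNAT10 cells (9.16 ± 0.274). This corresponds to 647, 922 and 1028 recovered reads against 273, 321 and 288, so that counting error is small beside the gap. The log2 fold change was -1.32 (SE 0.09, 95% interval -1.54 to -1.11, limma adjusted p = 0.000127), lower than that of all but 1.8% of the tested genes, and it ran from -1.41 to -1.22 over the 15 alternatives with every call kept. HMOX2, the constitutive heme oxygenase, was also lower, by -0.64 on the log2 scale (limma adjusted p = 0.00454).

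NQO1 encodes a quinone reductase and is a common readout of NRF2 activity. The gene lies on chromosome 16 at 69706996 to 69726951, minus strand. It measured 49.4, 62.1 and 54.8 FPKM in shCtrl and 39.3, 37.8 and 38.0 FPKM in shNAT10 cells, with all 3 shNAT10 libraries below the controls. The log2 fold change was -0.52 (SE 0.09, 95% interval -0.74 to -0.31, limma adjusted p = 0.0042), and the call held in all 15 alternatives. A gene on the other strand, AC092115.2, covers 17.7% of its exon bases, and it is not stated whether the counting used strand. The ratio of HMOX1 to NQO1 was 0.414, 0.403 and 0.438 in shCtrl and 0.241, 0.2401 and 0.235 in shNAT10 libraries (exact permutation p = 0.1, adjusted 0.125), again with no overlap.

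TXNRD1, the cytosolic thioredoxin reductase and a selenoprotein, lies on chromosome 12 at 104215779 to 104350305, plus strand. It measured 71.1, 56.6 and 67.6 FPKM in shCtrl and 64.3, 62.7 and 65.1 FPKM in shNAT10 cells. The shNAT10 values lay inside the control range. Its log2 fold change of -0.02 (95% interval -0.24 to 0.20, limma adjusted p = 0.903) turned positive with TPM (0.09) and without shCtrl replicate 1 (0.05) or 3 (0.01), so no direction can be given for it.

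GPX4, the selenoprotein that reduces lipid hydroperoxides in membranes, lies on chromosome 19 at 1103926 to 1106791, plus strand. It measured 231, 335 and 250.4 FPKM in shCtrl and 257, 246 and 229 FPKM in shNAT10 cells. The groups overlapped, and the log2 fold change of -0.14 (95% interval -0.47 to 0.19, limma adjusted p = 0.451) became 0.02 with quantile normalization and without shCtrl replicate 2. AIFM2, the coenzyme Q reductase that protects lipids without glutathione, lies on chromosome 10 at 70098223 to 70132934, minus strand. It measured 12.2, 14.1 and 11.7 FPKM in shCtrl and 7.82, 7.61 and 7.02 FPKM in shNAT10 cells. It fell by 0.75 on the log2 scale (SE 0.09, 95% interval -0.97 to -0.53, limma adjusted p = 0.00107), to 0.589 of the control mean, and every alternative kept the call. The ratio of GPX4 to AIFM2 was 18.9, 23.7 and 21.3 in shCtrl and 32.9, 32.4 and 32.6 in shNAT10 libraries, with no overlap (exact permutation p = 0.1, adjusted 0.125).

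**Figure D2:**
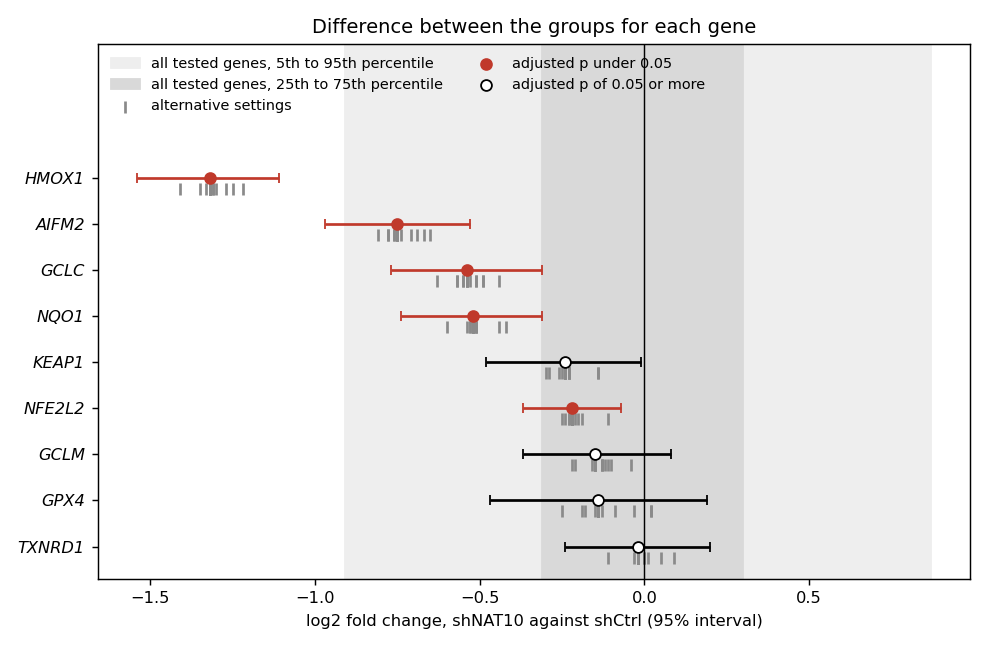
Log2 fold change of each gene, shNAT10 against shCtrl, with its 95% interval (red where the limma adjusted p is under 0.05, open otherwise) and, as grey ticks, the value under each alternative. The shaded bands give the 5th to 95th and 25th to 75th percentiles of all tested genes (-0.91 to 0.87 and -0.31 to 0.30), and HMOX1 is the single gene whose interval lies outside the wider band.

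**Figure D3:**
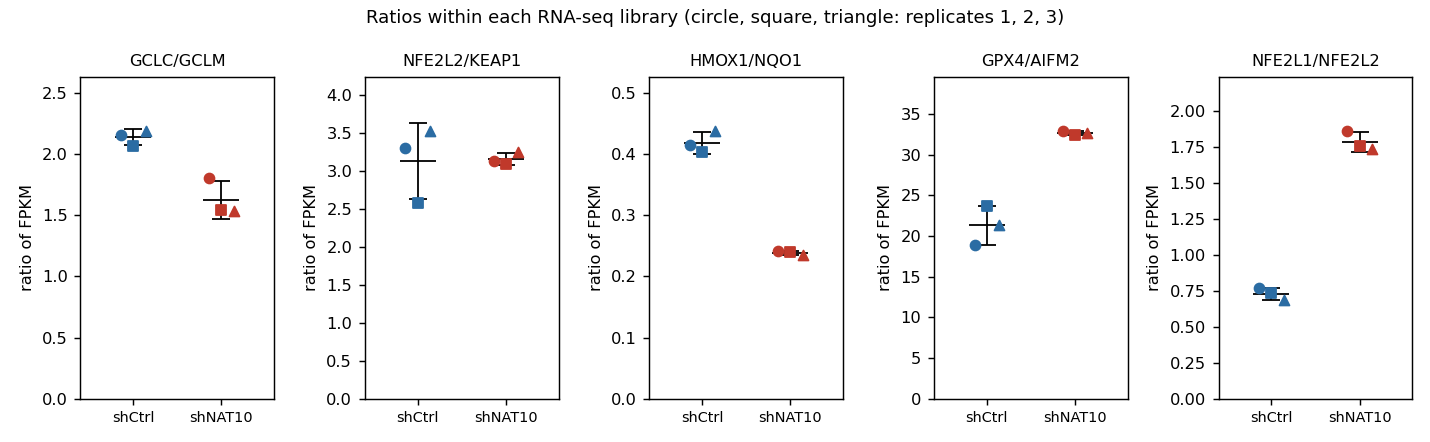
Ratios of FPKM within each library (vertical axes from 0, points are libraries, blue shCtrl and red shNAT10, black the mean and SD). The groups overlap for NFE2L2/KEAP1 and are apart for GCLC/GCLM, HMOX1/NQO1, GPX4/AIFM2 and NFE2L1/NFE2L2.

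Beside the 9 genes, 6 lists of the same pathways with 114 genes were followed, of which 96 passed the filter. At an adjusted p-value under 0.05 in limma, 36 of these were lower in shNAT10 (37.5%) and 12 were higher (12.5%), beside 21.2% and 20.8% of all tested genes, and their median log2 fold change was -0.25. With TPM the counts were 33 and 16. Leaving out 1 library gave 24 to 43 lower and 8 to 17 higher.

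NRF2 acts as a dimer with a small MAF protein, and its turnover needs a CUL3 and RBX1 ligase. Of 10 tested partners and regulators, 4 were lower and 2 higher, with a median log2 fold change of -0.12. Among all tested genes 21.2% were lower and 20.8% higher, with a median of -0.01. NFE2L1, a related factor that drives proteasome genes, rose by 1.07 on the log2 scale (limma adjusted p = 6.83e-05), from 56.1, 51.8 and 52.4 FPKM to 114, 111 and 111 FPKM. The ratio of NFE2L1 to NFE2L2 was 0.729 ± 0.042 in shCtrl and 1.78 ± 0.069 in shNAT10 (SD, n = 3 libraries each, exact permutation p = 0.1, adjusted 0.125). CUL3 was higher too (log2 fold change 0.42, limma adjusted p = 0.0042), whereas RBX1 (-0.42) and the small MAF proteins MAFF (-0.68) and MAFG (-0.38) were lower. SQSTM1, which sequesters KEAP1 as the autophagy receptor p62, was lower by -0.31 (limma adjusted p = 0.0202). BACH1, which represses HMOX1 at the same sites that NRF2 uses, measured 7.66, 4.34 and 6.22 FPKM in shCtrl and 6.04, 6.34 and 7.35 FPKM in shNAT10 cells, with overlapping groups (limma adjusted p = 0.587). Of these, RBX1, MAFF and SQSTM1 were not called without shCtrl replicate 3, shNAT10 replicate 1 or shNAT10 replicate 3, nor was MAFF without shCtrl replicate 2 or RBX1 and SQSTM1 without shNAT10 replicate 2.

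Of 14 genes of glutathione synthesis, recycling and transport, 4 were lower (28.6%) and 0 higher (median log2 fold change -0.18). Of all tested genes 21.2% were lower and 20.8% higher. At an unadjusted p-value under 0.05 limma gave 5 lower and 0 higher, and voom called 4.0 lower and 0.0 higher. The largest falls were in genes that break glutathione down or handle its fragments, namely GGT5 (-1.19), CHAC1 (-1.17) and GGCT (-0.72), a gamma-glutamyl transferase, a glutathione-specific cyclotransferase and a gamma-glutamyl cyclotransferase. GGT5 went from 3.93, 4.25 and 4.11 FPKM to 1.51, 1.78 and 1.94 FPKM, and CHAC1 from 8.42, 9.81 and 8.83 to 3.52, 4.67 and 3.73 FPKM. The call of GGCT was lost without shNAT10 replicate 1 (limma adjusted p = 0.055). SLC7A11, the cystine transporter that feeds glutathione synthesis, was low in both groups, at 2.98, 1.68 and 2.86 FPKM in shCtrl and 2.36, 2.82 and 2.68 FPKM in shNAT10, with no difference called (limma adjusted p = 0.745).

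The list of glutathione peroxidases and transferases had the lowest median of the 6, at -0.52. Of its 16 tested genes 9 were lower (56.2%) and 1 higher (6.2%), beside 21.2% and 20.8% of all tested genes. The lowest were the transferases GSTT2B (-1.33, limma adjusted p = 0.000958) and GSTO1 (-0.79) and the endoplasmic reticulum peroxidase GPX7 (-0.70). GSTZ1, a transferase of tyrosine breakdown, was higher (0.83, limma adjusted p = 0.00883), at 0.969, 1.27 and 0.953 FPKM in shCtrl and 1.96, 2.13 and 1.81 FPKM in shNAT10. GSTT2B has a near-identical neighbor, GSTT2, so its reads are uncertain.

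In the thioredoxin, peroxiredoxin and glutaredoxin systems 6 of 15 tested genes were lower (40.0%) and 2 higher (13.3%), beside 21.2% and 20.8% of all tested genes (median -0.28). While TXNRD1 showed no called difference, the mitochondrial reductase TXNRD2 was lower (-0.88, limma adjusted p = 0.00415) and the remaining reductase, TXNRD3, was higher (0.55, limma adjusted p = 0.0287). PRDX3, the mitochondrial peroxiredoxin, fell from 111, 127 and 122 FPKM to 74.5, 79.3 and 77.3 FPKM (-0.64), and the cytosolic PRDX2 was lower by -0.52. PRDX4, the peroxiredoxin of the endoplasmic reticulum, rose from 23.0, 35.9 and 26.9 FPKM to 56.1, 56.9 and 58.2 FPKM (1.02, limma adjusted p = 0.00224). The calls of TXNRD3 and PRDX2 were lost without shCtrl replicate 3 or without any 1 of the shNAT10 libraries.

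Of 17 tested members of the remaining NRF2 targets, 7 were lower (41.2%) and 3 higher (17.6%), beside 21.2% and 20.8% of all tested genes (median -0.20). AKR1B1, an aldose reductase, fell by 1.04 on the log2 scale, from 30.8, 37.6 and 30.1 FPKM to 15.1, 16.5 and 16.1 FPKM. Of the enzymes that make NADPH, the isocitrate dehydrogenase IDH1 was lower (-0.86), with 92.4, 93.7 and 97.4 FPKM in shCtrl and 48.5, 52.9 and 54.4 FPKM in shNAT10, whereas malic enzyme, ME1, was higher (0.63). Higher as well were PIR (0.69) and the transporter ABCC3 (0.49). The other 8 genes of this list did not pass the filter, among them AKR1C1, AKR1C2, AKR1C3, AKR1B10 and ALDH3A1, which are NRF2 targets in other epithelial lines and lay at or near 0 here in both groups.

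Iron handling and lipid peroxidation form the last list, with 6 of 24 tested genes lower and 4 higher. The shares among all tested genes were 21.2% lower and 20.8% higher. The median log2 fold change of the list was -0.04, beside -0.01 for all tested genes. FTL, the light chain of the iron store ferritin, fell from 838, 1125 and 953 FPKM to 525, 531 and 505 FPKM (-0.89, limma adjusted p = 0.00103). The heavy chain, FTH1, stood at 1099, 1523 and 1289 FPKM in shCtrl and at 1117, 1144 and 1060 FPKM in shNAT10, with overlapping groups (-0.22, limma adjusted p = 0.173). It was called lower without shCtrl replicate 1 (-0.34, limma adjusted p = 0.0236). Both ferritin genes have many processed pseudogenes that can share reads. TFRC, the transferrin receptor that imports iron, rose from 140, 96.3 and 126 FPKM to 215, 213 and 230 FPKM (0.88, limma adjusted p = 0.00249). ACSL4, which loads membranes with the polyunsaturated lipids that ferroptosis consumes, was higher (0.52, limma adjusted p = 0.0275), but not without any 1 of the shNAT10 libraries (limma adjusted p from 0.0651 to 0.0871). Of the lipid acyltransferases, MBOAT1 was lower (-0.92) and MBOAT2 was higher (0.42), the latter call being lost without shCtrl replicate 3, shNAT10 replicate 1 or shNAT10 replicate 3.

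**Figure D4:**
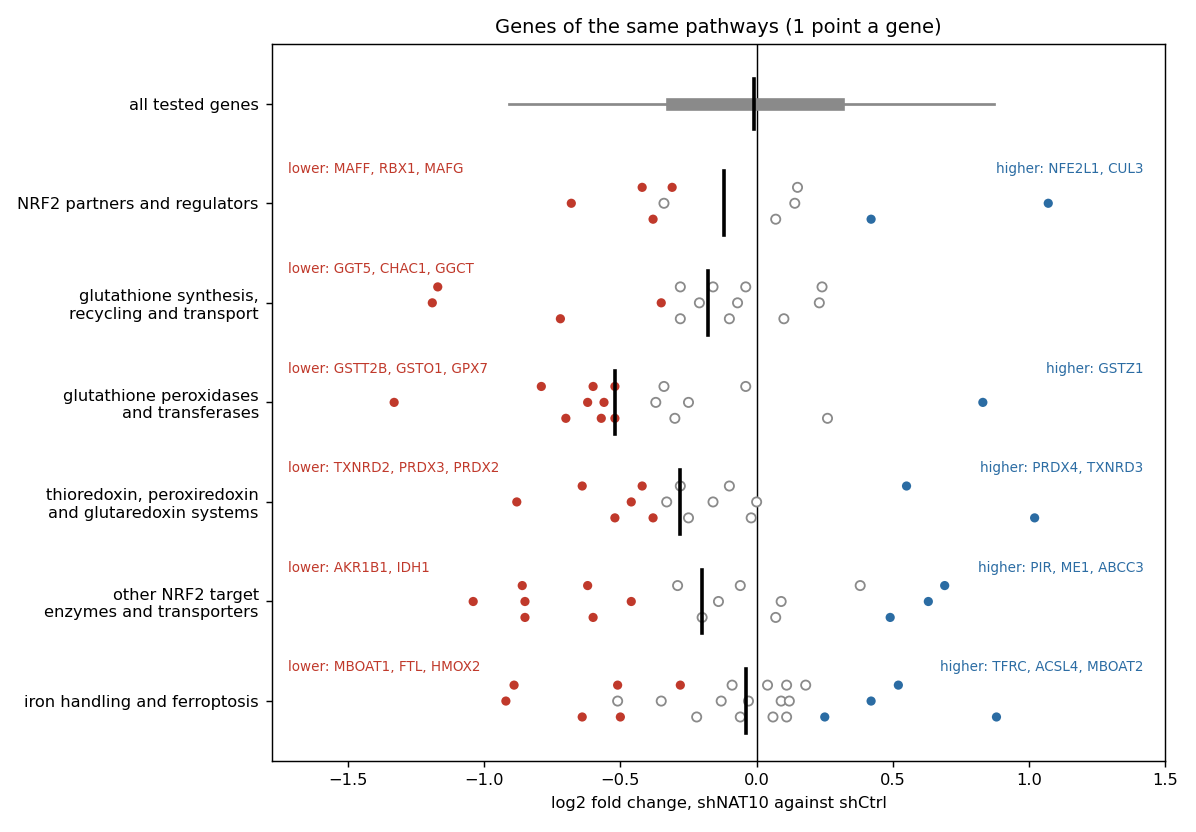
Log2 fold change (horizontal axis) of the tested genes of the 6 lists, red where lower and blue where higher at a limma adjusted p under 0.05, open otherwise, with the median as a black bar and up to 3 leading genes named per direction. The top row gives the percentiles of all tested genes (5th to 95th as a line, 25th to 75th as a bar), and the list of glutathione peroxidases and transferases lies furthest to the left, with a median of -0.52.

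The acRIP-seq peak lists held 16 peaks on the 9 genes in each group, of 16892 peaks in shCtrl and 15813 in shNAT10. With 1 list per group there is no test of a difference, and a peak absent from a list says only that none was called there. In shCtrl 5 of the 9 genes held a peak (GCLC, TXNRD1, KEAP1, AIFM2 and HMOX1), and in shNAT10 6 did (TXNRD1, NFE2L2, GCLC, HMOX1, GCLM and NQO1). Among all genes tested in RNA-seq these shares were 49.6% and 47.7%. Both lists held GCLC, TXNRD1 and HMOX1, as they did 33.7% of the tested genes. KEAP1 and AIFM2 had peaks in shCtrl alone (15.8% of the tested genes), and NFE2L2, GCLM and NQO1 in shNAT10 alone (13.9%). GPX4, the most abundant of the 9 transcripts, had a peak in neither list. The lists also name 362 and 368 genes whose FPKM was 0 in all 6 RNA-seq libraries, and peaks on PTPRC and PECAM1 in both, so a listed peak does not by itself require RNA seen in the RNA-seq.

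GCLC held the most shCtrl peaks, 8 with at least a part in its coding sequence, whose fold enrichment of IP over input ran from 35.3 to 432. In shNAT10 it had 3 peaks of 539, 210 and 719 bases with 168-, 14.4- and 101-fold enrichment. Not all of these bases were coding. Control peaks 2, 6 and 7 had 41, 105 and 101 of their 180, 210 and 330 bases on the longest coding transcript, and the 719-base shNAT10 peak had 439. The 2 lists overlapped by at least 1 base in 4 of the control peaks, and in none by 50% or more of both peaks. HMOX1 had 1 shCtrl peak (13.9-fold) and 3 shNAT10 peaks (3.97-, 119- and 19.9-fold). TXNRD1 had 3 shCtrl peaks in its 3′ UTR with enrichment of 1.5 to 2.8, among the lowest 3.3% of that list, and 5 shNAT10 peaks of 2.12- to 6.83-fold, 2 of them in the coding sequence. The only peak of the 9 genes found at the same place in both lists lay in the 3′ UTR of TXNRD1, chr12:104350006-104350185, with 2.8-fold enrichment in shCtrl and 6.83-fold in shNAT10. By fold enrichment AIFM2 held the highest peak of the 9 genes, a control peak in the 3′ UTR with 630-fold enrichment, at the 87.1th percentile of the list, whereas by p-value the HMOX1 peak of 119-fold enrichment in shNAT10 came first (log10 p of -1040, against -232). KEAP1 had control peaks of 12.6- and 27.1-fold enrichment at the start of its coding sequence and in its 3′ UTR. In shNAT10 the single peaks of GCLM and NQO1 had 12.7- and 4.73-fold enrichment, and the 3 of NFE2L2 had 1.91-, 7.49- and 12.7-fold.

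The coding parts of 5 peaks are printed because they show where the lists met or parted. In HMOX1 the strong shNAT10 peak ended at chr22:35389972, and the control peak began further on, at chr22:35390268. Of their 387 and 150 bases, 378 and 124 lay on the longest coding transcript. Only with the other bases left out did they adjoin, at transcript bases 1075 and 1076. AIFM2 had peaks in shCtrl alone and NFE2L2 in shNAT10 alone, and for GCLC a stretch of a control peak is given of which 121 bases were shared with a shNAT10 peak. The bases are from GENCODE v29 transcripts on GRCh38, 5′ to 3′ on the transcript strand, within exons of the coding sequence. Capitals mark each run in which a C returns after each 2 other bases, 4 times over, a spacing known from earlier maps of ac4C in mRNA. Such a run was present in 54.8% of 3626 shCtrl and 53.1% of 3423 shNAT10 peaks of 150 to 300 bases that lie in coding sequence.
HMOX1 shCtrl peak, chr22:35393468-35393591, plus strand: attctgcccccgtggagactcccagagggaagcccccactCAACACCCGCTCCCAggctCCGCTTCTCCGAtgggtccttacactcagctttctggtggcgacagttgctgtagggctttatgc
HMOX1 shNAT10 peak, the 5′ part of its coding bases, chr22:35386899-35389885 with an intron left out, plus strand: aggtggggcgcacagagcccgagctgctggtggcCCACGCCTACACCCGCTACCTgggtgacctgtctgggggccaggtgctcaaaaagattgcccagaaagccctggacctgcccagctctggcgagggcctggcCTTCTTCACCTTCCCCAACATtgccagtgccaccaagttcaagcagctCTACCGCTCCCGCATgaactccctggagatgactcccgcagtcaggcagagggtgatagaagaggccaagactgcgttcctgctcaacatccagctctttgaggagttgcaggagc
AIFM2 shCtrl peak, chr10:70116670-70117915 with an intron left out, minus strand: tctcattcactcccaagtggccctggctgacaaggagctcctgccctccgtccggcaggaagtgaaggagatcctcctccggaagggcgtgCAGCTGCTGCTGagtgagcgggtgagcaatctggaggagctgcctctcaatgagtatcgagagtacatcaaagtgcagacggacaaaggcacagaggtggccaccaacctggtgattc
NFE2L2 shNAT10 peak, chr2:177231022-177231261, minus strand: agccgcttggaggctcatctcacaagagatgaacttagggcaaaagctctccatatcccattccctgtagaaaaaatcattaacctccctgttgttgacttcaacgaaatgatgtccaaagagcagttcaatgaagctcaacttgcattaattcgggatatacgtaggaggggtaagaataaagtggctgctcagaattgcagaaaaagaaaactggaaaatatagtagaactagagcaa
GCLC shCtrl peak, chr6:53514204-53514454 with an intron left out, minus strand: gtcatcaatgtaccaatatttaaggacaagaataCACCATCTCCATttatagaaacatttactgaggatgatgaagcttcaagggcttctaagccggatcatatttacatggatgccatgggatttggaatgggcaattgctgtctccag
The printed HMOX1 stretches held 3 and 10 matches of the repeat, those of AIFM2 and GCLC 1 each, and that of NFE2L2 none. Other peaks of the same genes differed. The NFE2L2 peak of 1.91-fold enrichment held 2 matches and the HMOX1 peak of 3.97-fold held 0, both in shNAT10. The coding parts of GCLC control peaks held 0 to 3.

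NRF2 binds its targets at antioxidant response elements, whose core is written TGACNNNGC. Promoters of 8 of the 9 genes were matched in RefSeq (GRCh38.p14), as 13 windows of 250 bases before to 50 bases after an annotated start, and these were searched for the core on both strands. It was found in 5 of the 13 windows, 1 of GCLM, 1 of AIFM2, 2 of TXNRD1 and 1 of the 2 of KEAP1, and in 13.35% of all 35116 promoters of that length. The windows of NFE2L2, GCLC, NQO1 and GPX4 held no such letters. Bases beyond these windows were not searched, so a missing match does not show that a gene lacks the element. The stretches around the core, in capitals, are printed for GCLM and AIFM2, the pair of which only AIFM2 was called lower, and for KEAP1.
GCLM, match at -34 from the start, chr1:93909431-93909494, minus strand: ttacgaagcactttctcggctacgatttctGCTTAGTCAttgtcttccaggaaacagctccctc
AIFM2, match at -22 from the start, chr10:70132826-70132877, minus strand: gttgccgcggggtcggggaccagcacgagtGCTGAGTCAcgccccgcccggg
KEAP1, first match at -54 from the start, chr19:10502772-10502855, minus strand: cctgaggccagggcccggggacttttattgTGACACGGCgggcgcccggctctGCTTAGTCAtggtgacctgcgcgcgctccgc
A match is a description of letters and does not show that NRF2 binds there in PANC-1 cells.

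The RNA-seq calls and the peak lists were set side by side for the 9 genes. Of the 5 genes that were lower in shNAT10, AIFM2 had peaks in shCtrl alone, NFE2L2 and NQO1 in shNAT10 alone, and GCLC and HMOX1 in both. Of the 4 genes with no called difference, KEAP1 had peaks in shCtrl alone, GCLM in shNAT10 alone, TXNRD1 in both and GPX4 in neither. Each of the 3 kinds of peak state with a listed peak was thus found both among genes that were lower and among genes that were not called.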

How the data were processed

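RNA-seq of PANC-1 cells comprised 3 shCtrl and 3 shNAT10 libraries. The authors deposited FPKM per gene, and the submitters' processing notes name HISAT2 (version 2), HTSeq 0.11.0, DESeq2 1.22.2 and the builds hg38 and GRCh38, without roles. For acRIP-seq the authors deposited 1 peak list per group with the fold enrichment (a ratio of IP over input), the p-value of each peak and, treated here as a score, the log10 of that p-value. The peak caller, the pooling of the 3 IP and 3 input libraries and the strand setting of the counting are not given in the sources used here. No value column was left unmapped (0).

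Log2(FPKM + 0.1) was tested for the 12982 genes that reached 1 FPKM in 3 or more libraries, with limma 3.58.1 (R 4.3.3) with a mean-variance trend, and p-values were adjusted by Benjamini-Hochberg over all tested genes. Fold changes are on that scale, which understates changes of low genes. Reads were recovered from the FPKM steps with GENCODE v29 lengths (100.0% of values above 0 were whole within 0.01), and intervals cover the spread between libraries. Single values were tested by two-sided exact permutation. Sequences came from GENCODE v29 transcripts and RefSeq promoters. The alternatives were TPM, voom on the recovered reads, a pseudocount of 1, either no filter or one at 5 FPKM, centring by medians, quantile normalization, a fit without the trend, the replicate block, leaving out each library, and stricter peak thresholds and overlaps. The fitting was tested on simulated data.

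The genes named were the 9 genes and NAT10, up to 3 genes per list with the largest called rise and fall, SLC7A11, FTH1, FTL, SQSTM1, BACH1 and ACSL4, and the 3 genes most like NFE2L2. A gene that this rule names is not reported here. The 9 genes and the lists were chosen with earlier results of these data known. Computations used Python 3.11.15, NumPy 2.4.6, pandas 2.3.3 and matplotlib 3.10.9.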

Additional observations from a re-analysis of the deposited data

How the results depend on the processing

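Of 267 recomputed values, 239 kept their direction and side of the threshold or stayed within 1.5 times their count. HMOX1, AIFM2, GCLC and NQO1 were called lower in all 15 alternatives, and KEAP1, GCLM, GPX4 and TXNRD1 in none. The 267 values cover the 9 genes, NAT10 and the counts, and the 7 calls lost among them were all of NFE2L2. Outside them, the calls of RBX1, MAFF, SQSTM1, GGCT, PRDX2, TXNRD3, ACSL4 and MBOAT2 were also lost in some alternatives. The direction turned for GPX4 with quantile normalization and without shCtrl replicate 2 (0.02 in both), and for TXNRD1 with TPM (0.09), without shCtrl replicate 1 (0.05) and without shCtrl replicate 3 (0.01). The cause was not tested. Over the fits that left out 1 library the log2 fold change ran from -0.25 to 0.02 for GPX4 and from -0.11 to 0.05 for TXNRD1. Leaving out 1 library gave 4 to 5 of the 9 genes lower and, over the pathway lists, 24 to 43 lower and 8 to 17 higher. Over all genes the count fell below the main one by more than 1.5 times without shCtrl replicate 3 (1785 lower), shNAT10 replicate 1 (1774 higher), shNAT10 replicate 2 (1717 higher) and shNAT10 replicate 3 (1766 lower, 1736 higher).

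Nothing states whether the replicate numbers pair the samples, and the main fit treated them as unpaired. The correlations of same-numbered libraries' deviations were -0.043, 0.064 and 0.107, and not every library correlated best with its own number. With 3 libraries per group these values cannot decide whether the samples were paired. With the replicate block 4 of the 9 genes were lower and 0 higher (6 lower and 0 higher at an unadjusted p-value under 0.05 in limma), NFE2L2 having an adjusted p of 0.055, and the pathway lists gave 37 lower and 12 higher.

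With the 50% of peaks of highest fold enrichment, 2 genes held a shCtrl peak, 2 a shNAT10 peak and 1 both, over 8 and 3 peaks. With the 50% of lowest p-value, 3 held a shCtrl peak, 4 a shNAT10 peak and 1 both, over 6 and 9 peaks. At a reciprocal overlap of 50%, 1 peak of each group was shared, against 7 and 6 at 1 base. The depth of the acRIP-seq libraries is unknown here, so it sets no limit that can be given for absent peaks.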

Other observations

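GPX4 and TXNRD1 carry selenocysteine, and other selenoproteins were therefore followed in lists chosen after the values were seen. Of 17 tested selenoproteins 6 were lower in shNAT10 (35.3%) and 2 higher (11.8%), beside 21.2% and 20.8% of all tested genes, and their log2 fold changes had a median of -0.21, beside -0.01. The lower ones were the mitochondrial reductase TXNRD2 (-0.88), SELENOM (-0.84), DIO3 (-0.79), the cytosolic peroxidase GPX1 (-0.62, with pseudogenes that can share reads), SEPHS2 (-0.51), which makes the selenium donor, and MSRB1 (-0.50), a methionine sulfoxide reductase. Higher were TXNRD3 (0.55) and SELENON (0.28). As stated above, the call of TXNRD3 was lost without shCtrl replicate 3 or without any 1 of the shNAT10 libraries. GPX1 was called in 13 of 15 alternatives. DIO3 was low, at a mean of 1.63 FPKM in shCtrl and 0.902 FPKM in shNAT10 (limma adjusted p = 0.0378). TXNRD2, TXNRD3, GPX1 and GPX3 were also counted in the earlier lists. Of the 6 genes of the machinery that inserts selenocysteine, TRNAU1AP (-0.54) and PSTK (-0.35, limma adjusted p = 0.046) were lower and 0 were higher. These shares were 33.3% and 0.0%, beside 21.2% and 20.8% of all tested genes. SECISBP2 (0.03) and EEFSEC (-0.16) were not called.

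Among the superoxide dismutases and catalase, the mitochondrial SOD2 was higher (0.44, limma adjusted p = 0.00421). CAT (0.11, limma adjusted p = 0.194) and SOD1 (-0.24, limma adjusted p = 0.107) were not called.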
